A study of Drosophila melanogaster with 13 samples.

Results

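The cytoplasmic ribosomal protein genes were examined in RNA sequencing libraries of the Drosophila melanogaster proboscis, the feeding organ whose tip is the labellum, the tissue named in the labels. They were taken by name, as all gene symbols that begin with RpL, RpS or RpLP followed by a digit, without the names that end in -like. Of 13893 genes in the deposited tables, 92 matched the pattern, 5 ended in -like, and 87 were kept. They comprise 47 genes of the large subunit, 37 genes of the small subunit and the 3 stalk genes RpLP0, RpLP1 and RpLP2. The name rule uses no measured value, but it was set with earlier results of these data known.

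The ribosome translates messenger RNA into protein. Its small subunit reads the messenger and its large subunit joins the amino acids, and each is built of ribosomal RNA and of ribosomal proteins that are needed in about equal numbers. Ribosomal protein genes are therefore among the most highly expressed genes of most cells, and in the fly the loss of a single copy of many of them gives the Minute phenotype of slow growth and thin bristles. Several fly ribosomal proteins are encoded by a pair of paralogues, marked a and b, and for some pairs the second copy is known mainly from the gonads.

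The study had 4 groups in 2 experiments. In the diet experiment, flies of the parental genotype were held for 7 days on a high sugar diet (2 libraries) or on the standard cornmeal control diet (2 libraries), with RNA of 200 proboscises in each library. In the OGT RNAi experiment, all flies were held on the high sugar diet for 7 days. They had the driver Gr5a-GAL4, whose promoter is that of a sweet taste receptor gene and which acts in sweet-sensing neurons, a small part of the organ. It was combined with UAS-OGT-RNAi (OGT RNAi, 5 libraries) or present alone as Gr5a-GAL4/+ (Gal4 control, 4 libraries), with 20 proboscises in each library. The experiments used different kits for library construction, Ovation for model organisms and Ovation SoLo, so each comparison was made within its own experiment. The labels give the flies as age-matched without an age and do not give their sex. Replicates are described as biological with no account of the pooling, so p-values measure the spread between these libraries, which may be partly technical.

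Library totals ranged from 5632566 to 13884963 estimated counts. Transcripts of sxc, the gene for the O-GlcNAc transferase OGT that the RNAi targets, stood at 138, 170, 133, 135 and 136 CPM (counts scaled to the library total and between libraries) in OGT RNAi replicates 1 to 5 and at 163, 142, 170 and 174 CPM in Gal4 control replicates 1 to 4. These ranges overlapped, and the difference (log2 change -0.19, SE 0.086) was not called (adjusted p 0.376, edgeR). Transcripts of the taste receptor genes Gr5a and Gr66a, which mark sweet and bitter neurons, were counted in all 13 libraries, at 6 to 81 and 9 to 198 counts. The taste receptor genes Gr64f, Gr64a and Gr61a were at 3 to 69, 2 to 52 and 0 to 24 counts, each lowest on the sugar diet. In bulk tissue, fewer cells of a type and less RNA per cell cannot be told apart.

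Of the 87 ribosomal protein genes, 81 passed the filter on low counts in both comparisons, 45 of the large subunit, 33 of the small subunit and all 3 of the stalk. The remaining 6 were all paralogue copies. RpL10Aa, RpL37b and RpS28a had 0 counts in all 13 libraries, which at these depths allows up to 0.216 to 0.533 CPM (3 counts, counting error only). RpS10a had at most 1 count and RpS19b at most 2 counts in a library, each above 0 in 5 libraries. RpS5b, a copy known from the ovary, was above 0 in all 13 libraries but reached at most 11 counts and exceeded 3 counts in 8 of them. A list of 7 female germ-line genes (vas, nos, osk, otu, bam, aub and piwi) had a summed level of 0.265 to 1.17 TPM per library, and none of them passed the filter. Of a list of 11 male germ-line and accessory gland genes, 3 passed the filter, bol at 24.7 to 120 TPM, fzo at 12.6 to 38.7 TPM and twe at 0.624 to 2.09 TPM, and the summed level of the list was 38.5 to 162 TPM. Within it, the accessory gland genes Acp26Aa and SP and the testis gene Mst84Db were at 0 in every library.

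Levels were compared between genes in TPM (a share of transcripts within the library, scaled by transcript length). The median tested ribosomal protein gene stood at 638 TPM on the sugar diet, 799 TPM on the control diet, 1425 TPM under OGT RNAi and 1353 TPM in the Gal4 control. The median of all tested genes was 10.9, 13.2, 16.2 and 16.4 TPM in the same groups, and the median ribosomal protein gene lay at the 98.5th to 98.9th percentile of them. Levels were close to each other for most members: the upper quartile of group means was 1.69 to 2.08 times the lower quartile. Together the 87 genes held 4.71 to 7.15% of the TPM of a library in the diet experiment and 11.4 to 13.8% in the OGT RNAi experiment.

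At the top of this order stood RpL41, whose protein is a very short peptide of the large subunit. It measured 1724 and 2674 TPM on the sugar diet and 2546 and 2772 TPM on the control diet. It reached 8089 to 8821 TPM in the OGT RNAi libraries (median 8145) and 7481 to 7932 TPM in the Gal4 control libraries. RpL41 (FBgn0066084; BDGP6 chromosome 2R, 24903416 to 24903935, minus strand) has a single annotated transcript of 320 bases. By the mean over all 13 libraries it was followed by RpL39 (2682 TPM), RpL37a (2265), RpS28b (2244) and the stalk gene RpLP1 (2086). At the bottom stood RpS15Ab (89.6 TPM), RpL34a (209), RpS14b (422), RpL34b (526) and RpL9 (640). Of these 5, all but RpL9 belong to paralogue pairs, in which 2 genes encode the same ribosomal protein.

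The proteins of the stalk, which draws elongation factors to the ribosome, are needed in unequal numbers, with RpLP1 and RpLP2 in pairs around RpLP0. RpLP0 was at 327 and 486 TPM on the sugar diet, 481 and 497 TPM on the control diet, 901 to 1038 TPM under OGT RNAi and 860 to 996 TPM in the Gal4 control. RpLP2 was higher in every library, at 496 and 703, 760 and 801, 1911 to 2230, and 1714 to 2051 TPM in the same order of groups. RpLP1 was higher still in every library, at 995 and 1594, 1638 and 1778, 2277 to 2575, and 2114 to 2338 TPM.

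The members' levels differed between the 2 experiments, in which kit, input, extraction and genotype all differed at once. The diet experiment also held control diet libraries, while all libraries of the other were on the high sugar diet. These sources cannot be told apart, and no test was made. The ratio of the mean TPM of the OGT RNAi experiment to that of the diet experiment had a median of 1.98 over the 81 members and 1.47 over 8614 genes tested in both. It was above 1 in 75 members and below 1 in 6, among them RpS6, whose protein is a substrate of the growth-linked S6 kinase (0.81), and RpL3 (0.99). Many members changed their place in the order, though RpL41 was first in both experiments. RpS5a moved from rank 15 to rank 69 of 81, RpS3 from 25 to 73 and RpS6 from 9 to 54. RpL38 was at 67.7 to 101 TPM in the 4 diet libraries and at 2003 to 2933 TPM in the other 9, a ratio of 27.7, and moved from rank 80 to rank 6 of 81. RpL39 was at 277 to 369 and 3220 to 4090 TPM, a ratio of 11.3, and moved from rank 73 to rank 2. RpL37A, RpS21 and RpS12 also had ratios above 5. RpL39 (2R, 24061853 to 24062431, minus strand) overlaps the end of RpL12 (2R, 24060378 to 24061860, plus strand). The overlap runs only from 24061853 to 24061860, a small part of either gene, and the ratio of RpL12 was 1.62. The sources used here do not say whether counting used the strand. A part of the overlap in the ratio of RpL39 was not tested.

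**Figure D1:**
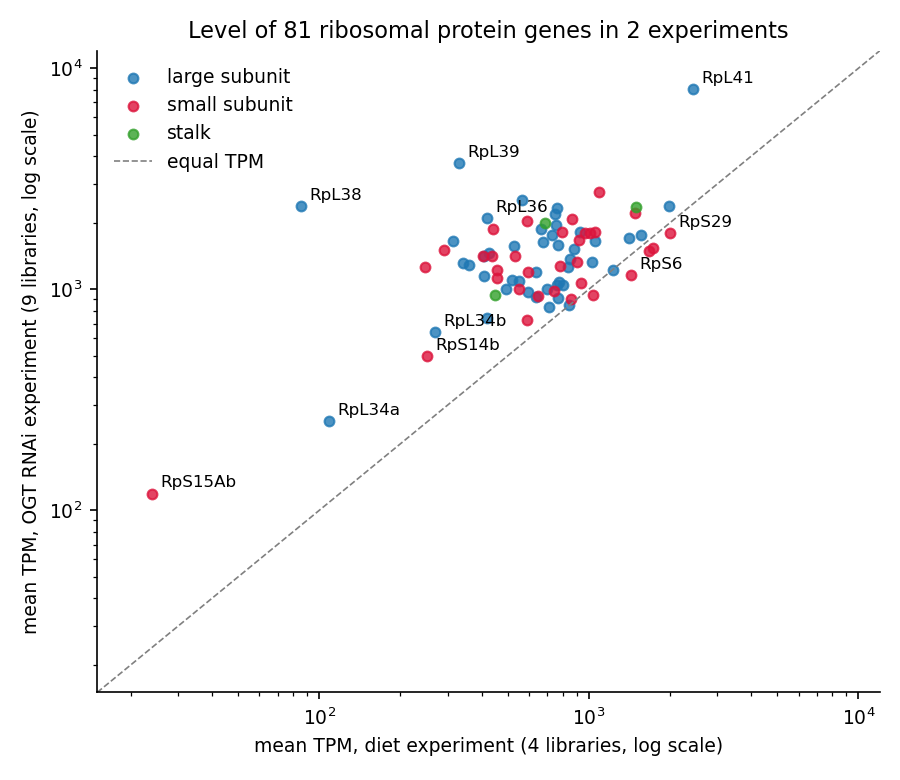
Mean TPM of each of 81 ribosomal protein genes in the diet experiment (4 libraries, horizontal log axis) and in the OGT RNAi experiment (9 libraries, vertical log axis), coloured by subunit, with a dashed line of equal TPM. 75 genes lie above the line, and RpL38 and RpL39 lie farthest above it with ratios of 27.7 and 11.3.

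The ribosomal protein genes moved together between libraries of the same group. For each library the deviation of log2 CPM from the mean of its group was taken, gene by gene. Under OGT RNAi, all 81 members were above their group mean in replicate 4 and in replicate 5, with median deviations of 0.10 in each. In replicate 2 none of the 81 was above it (median -0.12), in replicate 1 only 1 member was (median -0.09), and in replicate 3 it was 24 members (median -0.01). In the Gal4 control, 1 member was above the group mean in replicate 1 (median -0.11), 80 in replicate 2 (0.07), 76 in replicate 3 (0.06) and 17 in replicate 4 (-0.03). Over all tested genes, 47.7 to 52.4% were above the group mean in each of the 13 libraries. The scaling between libraries centres all genes near their group mean, so this share was largely fixed in advance. On the sugar diet, 9 members were above the group mean in replicate 1 (median -0.09) and 72 in replicate 2. On the control diet the libraries lay closer, with 49 members above the mean in replicate 1 (median 0.01) and 32 in replicate 2. With 2 libraries a group, each is the mirror of the other.

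**Figure D2:**
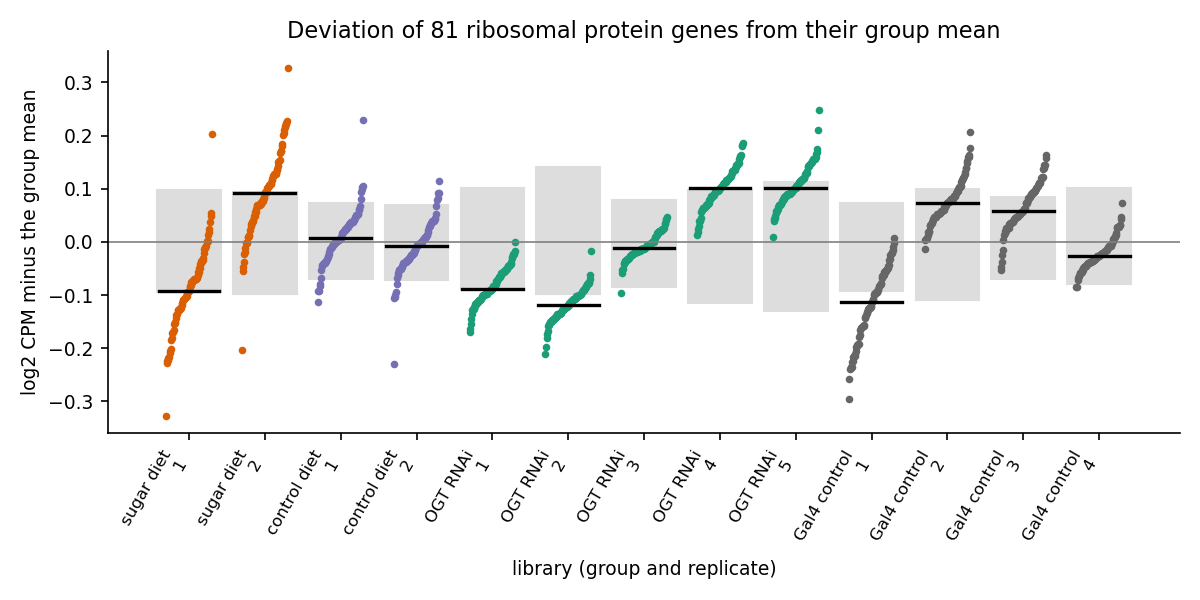
Deviation of log2 CPM from the group mean for 81 ribosomal protein genes in each of 13 libraries, the members sorted within a library. Points are genes, black lines are the members' medians and grey boxes span the interquartile range of all tested genes. In OGT RNAi replicates 4 and 5 all 81 members lie above 0, in replicate 2 none does.

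Much of the members' spread within a group was common to them. The SD of log2 CPM between libraries of a group had a median over the 81 members of 0.13 on the sugar diet, 0.05 on the control diet, 0.11 under OGT RNAi and 0.09 in the Gal4 control. When the median member of each library was subtracted, these values were 0.06, 0.04, 0.03 and 0.05, and the SD was smaller in 60, 45, 80 and 72 of the 81 members. Subtracting the median gene of each library left the corresponding median SD over all tested genes at 0.14, 0.10, 0.15 and 0.13, as it was before. That outcome was fixed in advance and is no contrast to the members. The scaling between libraries had already brought the median deviation of all genes to between -0.0095 and 0.0081. The subtracted median is taken from the members themselves, so some decrease is built in.

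The share of all counts that the 87 genes held gave the same order of libraries as the median deviation under OGT RNAi, in the Gal4 control and on the sugar diet, and the opposite order on the control diet, where the libraries lay close. It was 4.72, 4.51, 5.06, 5.35 and 5.64% in OGT RNAi replicates 1 to 5 and 4.26, 5.04, 4.77 and 4.44% in Gal4 control replicates 1 to 4. It was 1.91 and 2.31% on the sugar diet and 2.47 and 2.50% on the control diet. Other measures of the libraries differed as well, and their part in this pattern was not tested. Transcripts of the mitochondrial genome held 6.05, 6.61, 6.40, 6.28 and 5.24% of counts under OGT RNAi and 6.93, 5.38, 6.56 and 6.69% in the Gal4 control. They held 9.07 and 7.38% on the sugar diet and 10.7 and 10.4% on the control diet. In each group the library with the lowest ribosomal protein share had the highest mitochondrial share. The summed level of 9 neuronal marker genes (elav, nSyb, Syt1, brp, fne, Rdl, para, cac and VGlut), none of which was at 0 in any library, was 111, 125, 78.9, 73.0 and 70.0 TPM under OGT RNAi and 93.0, 86.1, 92.5 and 119 TPM in the Gal4 control. On the sugar diet, transcripts of a single gene, Arc1, held 12.6 and 13.4% of counts, against 7.40 and 7.51% on the control diet. Without Arc1 and the mitochondrial genome the ribosomal protein share was 2.44 and 2.92% on the sugar diet and 3.01 and 3.04% on the control diet.

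The sugar diet was compared with the control diet to ask how a week of sugar changed transcript levels in the proboscis. Among the ribosomal protein genes 1 rose and 2 fell, and the others were not called. RpS3, a small-subunit protein at the site where messenger RNA enters, rose, while RpS26, a small-subunit protein near the exit of the messenger, and RpL10Ab, the protein of the mobile L1 stalk of the large subunit, fell. The 3 called members of 81 stand beside 6.47% of all 8825 tested genes (571 called), 3.12% called higher and 3.35% called lower. Of 2209 other genes of high level, at a mean of 50 CPM or more, 169 were called higher and 155 lower.

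RpL10Ab (FBgn0036213; 3L, 11822851 to 11824211, plus strand) measured 117 and 121 CPM in the sugar diet libraries and 160 and 159 CPM in the control diet libraries. The groups did not overlap, and the gap was wide beside the spread in each, 119 ± 2.54 against 159 ± 0.576 CPM (SD, n = 2 each). The log2 change was -0.42 (SE 0.082, adjusted p 0.00417, edgeR). Its partner RpL10Aa had no counts, so this change was that of the only measured copy. RpS26 (FBgn0261597; 2L, 18441335 to 18443277, minus strand) measured 415 and 449 CPM on the sugar diet and 565 and 530 CPM on the control diet. Again every sugar diet value was below every control diet value, with a log2 change of -0.34 (SE 0.078, adjusted p 0.0125, edgeR). RpS3 (FBgn0002622; 3R, 23358812 to 23360207, plus strand) measured 485 and 536 CPM on the sugar diet and 408 and 406 CPM on the control diet. Here both sugar diet libraries were higher, and the log2 change was 0.33 (SE 0.078, adjusted p 0.0159, edgeR).

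**Figure D3:**
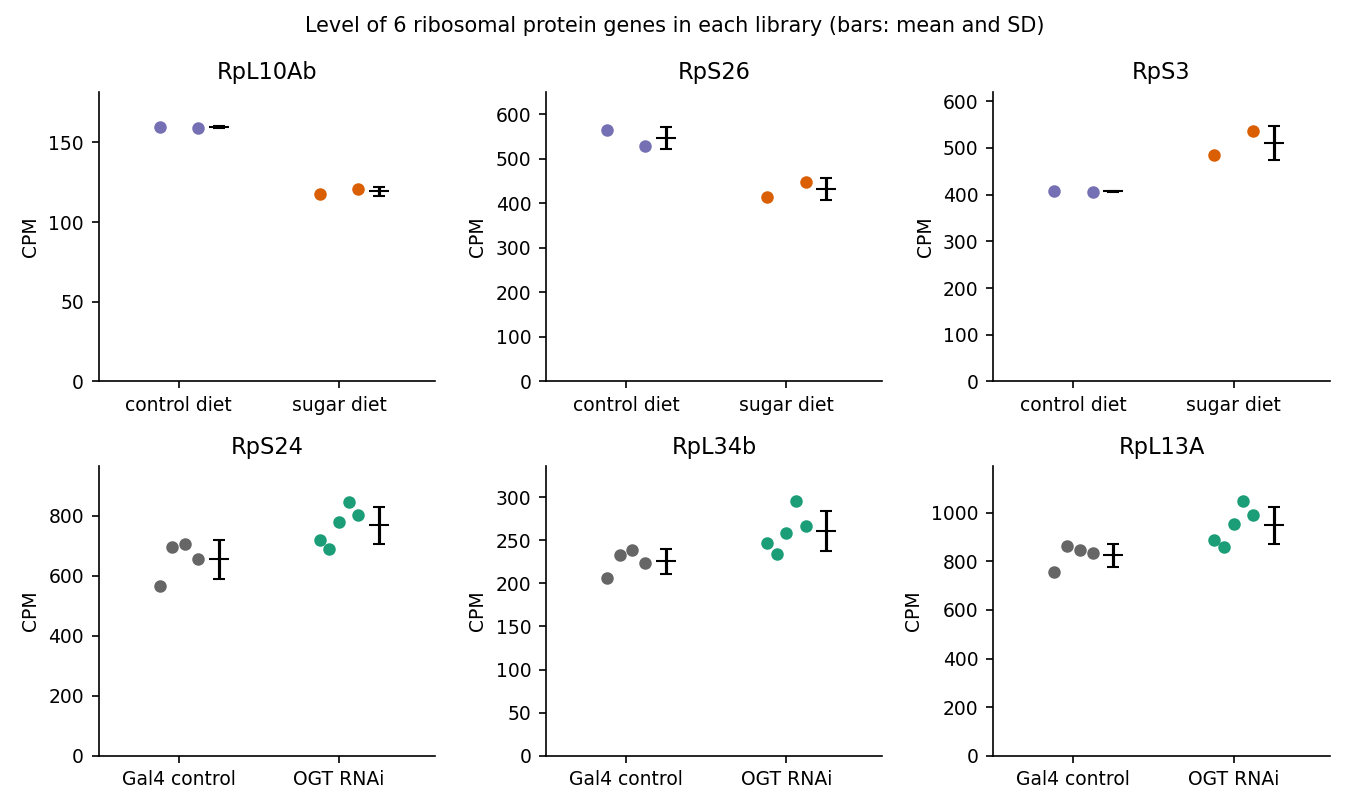
TMM-normalised CPM per library of the 3 members called between the diets (upper row) and of the 3 members with the largest log2 change under OGT RNAi, none of them called (lower row). Points are libraries, bars are mean and SD. The upper groups do not overlap, as for RpL10Ab at 117 and 121 against 160 and 159 CPM, and the lower groups do.

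For RpL10Ab, the transcript FBtr0076032 held 97.5% of the gene's mean TPM, and for RpS26 the transcript FBtr0081089 held 96.8%. RpS3 had 2 transcripts, FBtr0084410 with 79.1% and FBtr0346349 with 20.9%. In TPM the main transcript of RpL10Ab was lower on the sugar diet in both libraries (224 and 278 against 381 and 417), as was that of RpS26 (1008 and 1295 against 1725 and 1732). Those of RpS3 overlapped between the diets, at 578 and 737 against 659 and 681 TPM for FBtr0084410 and 172 and 261 against 163 and 192 TPM for FBtr0346349. TPM are not scaled between libraries, and the median log2 change of all tested genes was -0.25 on the TPM scale. In the authors' deposited table per gene, the effect b (natural log scale) was -0.29 for RpL10Ab, -0.23 for RpS26 and 0.21 for RpS3, with q-values of 0.000171, 0.000567 and 0.00286. These were the only 3 of 81 members with q under 0.05 in the authors' deposited table, where 4.73% of all genes were. In the authors' deposited table per transcript, none of 179 member transcripts reached q under 0.05, against 1.06% of all transcripts listed with a q-value.

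The other members differed little between the diets. The median log2 change over the 81 members was -0.05, with 26 above and 55 below 0, and the median over all tested genes was 0.00, with 50.6% above 0. An unadjusted p under 0.05 was found in 12 members (14.8%) and in 17.7% of all tested genes. The values of the groups did not overlap in 29 members (35.8%) and in 47.5% of all tested genes. Among other genes at a mean of 50 CPM or more, these shares were 29.4% and 59.6%. Among the large-subunit members 14 of 45 were above 0, among the small-subunit members 12 of 33, and the 3 stalk genes were all below it, at -0.01 for RpLP0, -0.14 for RpLP1 and -0.13 for RpLP2, none of them called.

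Beyond the called genes, the largest positive values belonged to RpS15Ab and RpS15Aa, which encode the same small-subunit protein. RpS15Aa measured 372 and 409 CPM on the sugar diet and 337 and 314 CPM on the control diet, with a log2 change of 0.26 (SE 0.080, adjusted p 0.0649, edgeR) that did not pass the threshold. On the TPM scale it was -0.03, where the median of all tested genes was -0.25. RpS15Ab, at 12.7 and 9.43 CPM against 7.88 and 7.96 CPM, had a log2 change of 0.47 (SE 0.23, adjusted p 0.300, edgeR). RpL30, of the large subunit, had the third lowest value at -0.26 (SE 0.11, adjusted p 0.200, edgeR), with 72.9 and 87.0 CPM on the sugar diet against 102 and 89.5 CPM on the control diet.

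The diet result depended on single libraries. Without control diet replicate 1 or without replicate 2 no member was called, against 2.15 and 2.51% of all tested genes, and the adjusted p (edgeR) was 0.124 and 0.0967 for RpL10Ab, 0.340 and 0.126 for RpS26, and 0.284 and 0.272 for RpS3. Without sugar diet replicate 1, in which most members lay low, 6 members were called higher and 2 lower (8.83% of all tested genes called), and the median log2 change was 0.04. Without sugar diet replicate 2, in which most lay high, 1 was called higher and 15 lower (10.2% of all tested genes called), and the median was -0.16. When libraries were scaled by their totals alone, 0 members were called higher and 12 lower, against 10.8% of all tested genes called, but the median of all tested genes then lay at -0.20 beside -0.25 for the members, and RpS3 stood at 0.13 (adjusted p 0.498, edgeR). All 3 calls also ended with limma on log2(TPM + 1), where RpL10Ab and RpS26 had log2 changes of -0.68 and -0.61 (adjusted p 0.0959 and 0.230) and RpS3 stood at 0.03 (adjusted p 0.954). On that scale, too, the median of all tested genes lay low, at -0.25. The 3 calls ended in an edgeR fit over all 13 libraries as well, with changes near those of the main fit, at -0.40, -0.32 and 0.35 (adjusted p 0.0707, 0.120 and 0.0791).

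Markers of other cell types moved with the diet, and their part in the members' values was not tested. Over all tested genes 3.12% were called higher on the sugar diet and 3.35% lower. All 11 tested muscle genes had a log2 change above 0, and 5 were called higher (sls, bt, Act57B, Mlc2 and Tm1). The summed level of the muscle list was 6982 and 7789 TPM on the sugar diet against 6566 and 6965 TPM on the control diet. All 3 tested fat body genes of a list of 9 (Lsp1beta, apolpp and Mtp) were called lower. The summed level of that list was 131 and 167 TPM against 237 and 271 TPM. Of the untested fat body genes, Yp1, Yp3, Fbp1 and Fbp2 were at 0 in both sugar diet libraries and at or near 0 on the control diet, where the highest of their values was 0.853 TPM (Fbp2). Of 6 cuticle genes 4 were called higher (5 above 0), of 6 glial genes 2 (4 above 0) and of 6 haemocyte genes 1 (4 above 0). Of 3 tested genes of the male list bol was called higher (2 above 0). None of the 9 neuronal genes was called, with 4 above and 5 below 0 and a median log2 change of -0.0002. Their summed level was 147 and 176 TPM against 183 and 207 TPM. TPM are not scaled between libraries, and on the TPM scale the median log2 change of all tested genes was -0.25.

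**Figure D4:**
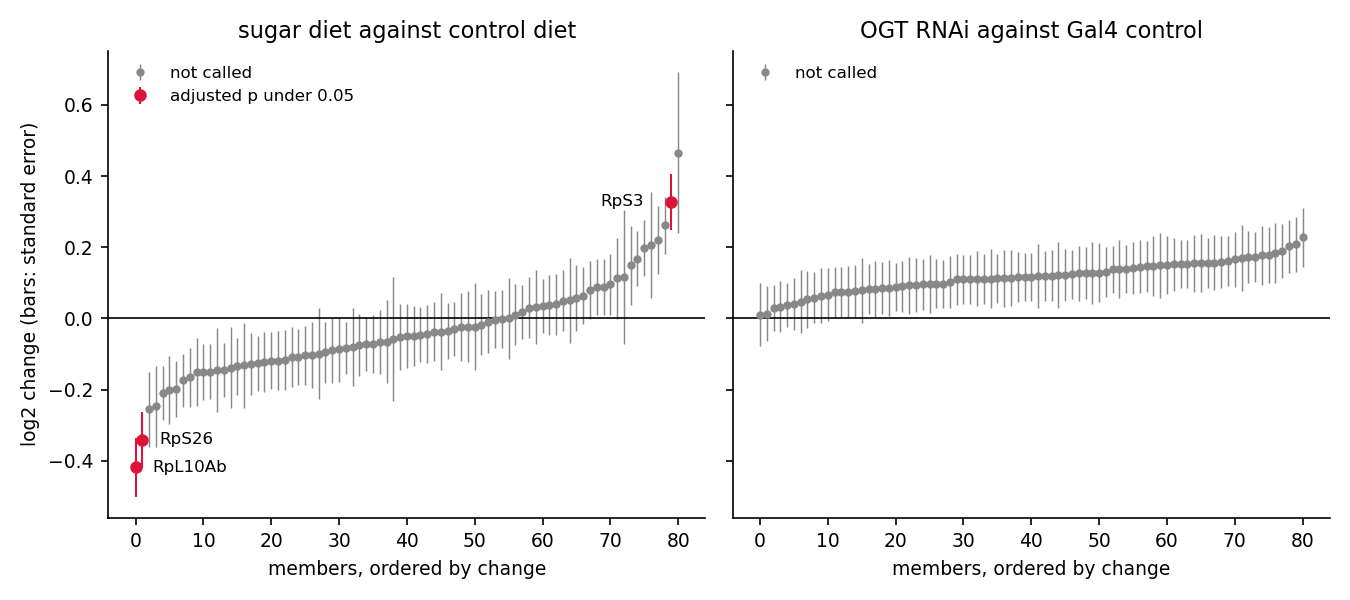
Log2 change of each of 81 ribosomal protein genes with its standard error, ordered by size, for sugar diet against control diet (left) and OGT RNAi against Gal4 control (right). Red points passed an adjusted p of 0.05. The diet panel holds 26 changes above and 55 below 0 with 3 called, and the RNAi panel holds 81 above 0 with none called. Scaling libraries on the members themselves centres their changes near 0 by construction. In that setting 36 were above 0 for the diets and 40 for OGT RNAi.

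OGT RNAi was compared with the Gal4 control to ask what RNAi against OGT in sweet neurons changed under the sugar diet. All 81 tested ribosomal protein genes had a small positive log2 change, and none was called by edgeR, DESeq2 or limma. Of all 9399 tested genes 1.27% were called (119), 98 higher (1.04%) and 21 lower (0.223%). DESeq2 called 1.98% and limma on log2(TPM + 1) 0.989% of all genes. The median log2 change over the members was 0.12, a ratio of 1.08, and over all tested genes it was 0.00, with 50.8% of genes above 0. Among other genes of high level, at a mean of 50 CPM or more, 41.8% were above 0. Scaled on the members themselves, 40 of the 81 were above 0 and the median was 0.00, beside -0.11 for all genes. That scaling centres the members' changes near 0 by construction, so their count and median were fixed in advance. On the TPM scale 77 were above 0.

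The members' changes lay in a narrow range, from 0.01 for RpL7A to 0.23 for RpS24, with a median standard error of 0.07. The subunits had like medians, 0.12 for the 45 large-subunit members, 0.12 for the 33 small-subunit members and 0.12 for the stalk, whose genes stood at 0.12 (RpLP0), 0.16 (RpLP1) and 0.12 (RpLP2). An unadjusted p under 0.05 was found in 15 members (18.5%) and in 12.9% of all tested genes. Since the members moved together between libraries, these values are not independent of each other.

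RpS24, a small-subunit protein (FBgn0261596; 2R, 22640526 to 22641419, minus strand), had the largest change. It measured 720, 690, 779, 848 and 802 CPM in OGT RNAi replicates 1 to 5 and 564, 697, 705 and 655 CPM in Gal4 control replicates 1 to 4. The groups overlapped, since the lowest OGT RNAi value lay below 2 of the Gal4 control values, and the log2 change was 0.23 (SE 0.083, adjusted p 0.245, edgeR), the smallest adjusted p of any member. RpL34b, of the large subunit, measured 247, 234, 259, 296 and 267 CPM against 206, 234, 239 and 223 CPM (log2 change 0.21, SE 0.077, adjusted p 0.251, edgeR). RpL13A, also of the large subunit, measured 888, 861, 952, 1049 and 993 CPM against 755, 864, 845 and 833 CPM (log2 change 0.20, SE 0.075, adjusted p 0.250, edgeR). In all 3 genes Gal4 control replicate 1 was the lowest of the 9 libraries, and OGT RNAi replicate 4 the highest.

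RpL12, a large-subunit protein at the base of the stalk, was the only member whose groups did not overlap, which is 1.23% of members and 5.54% of all tested genes. It measured 552, 552, 602, 649 and 610 CPM under OGT RNAi and 498, 549, 550 and 531 CPM in the Gal4 control, and the lowest OGT RNAi value lay just above the highest control value (log2 change 0.16, SE 0.070, adjusted p 0.357, edgeR). At the low end, RpL7A had 636 to 755 CPM under OGT RNAi and 572 to 752 CPM in the Gal4 control, and RpS2 and RpL15 had log2 changes of 0.01 and 0.03. The 3 members called between the diets had log2 changes of 0.06 (RpL10Ab), 0.16 (RpS26) and 0.12 (RpS3) here, none of them called.

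Leaving out 1 library at a time kept the members' median log2 change between 0.08 and 0.15, with 76 to 81 members above 0 and none called, while 0.444 to 2.83% of all tested genes were called. In the authors' deposited table per gene, the effect b was above 0 in all 81 members and none had q under 0.05, against 2.82% of all genes. In the authors' deposited table per transcript, 1 of 201 member transcripts had q under 0.05, against 0.792% of all transcripts listed with a q-value. It was FBtr0346148 of RpS30 (b 0.42 on the natural log scale, q 0.0398). The share of counts held by the members, 4.51 to 5.64% under OGT RNAi and 4.26 to 5.04% in the Gal4 control, overlapped between the groups. Of the marker lists, no neuronal, muscle, glial, fat body, haemocyte or germ-line gene was called and the cuticle gene kkv was called higher, and the neuronal list spanned 70.0 to 125 TPM under OGT RNAi and 86.1 to 119 TPM in the Gal4 control.

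Among the 87 members were 9 pairs of paralogues whose symbols differ in a final a or b. Near-identical copies share reads, which the authors' quantification divides between them by estimation, so the split within a pair is less certain than its sum. In 6 pairs a single copy held nearly all the signal: RpL10Ab, RpL37a and RpS28b, whose partners had no counts, and RpS10b, RpS19a and RpS5a, whose partners held at most 0.0697, 0.0332 and 0.162% of the pair's TPM in any library. In the other 3 pairs both copies were measured in every library.

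RpL34a held 25.4 to 31.0% of the TPM of its pair with RpL34b over the 13 libraries. The group means were 28.0 ± 3.64% on the sugar diet (SD, n = 2), 29.2 ± 2.48% on the control diet (n = 2), 27.6 ± 0.968% under OGT RNAi (n = 5) and 29.3 ± 1.18% in the Gal4 control (n = 4). The libraries of the 2 groups overlapped in each experiment. The genes lie apart on chromosome arm 3R, RpL34a at 26058420 to 26059267 and RpL34b at 9400237 to 9401226, both on the minus strand. Neither was called in either comparison.

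RpS14a and RpS14b lie next to each other on the X chromosome, at 7933742 to 7934677 and 7934898 to 7935792 on the plus strand, and are known to encode the same protein. RpS14b held 41.0 and 34.7% of the pair on the sugar diet and 34.9 and 37.2% on the control diet, and these ranges overlapped. It held 25.5 to 27.2% under OGT RNAi and 24.2 to 27.0% in the Gal4 control. All 4 diet libraries thus lay above all 9 libraries of the OGT RNAi experiment, a difference in which kit and genotype cannot be told apart from any other. Between the diets the log2 change was -0.25 for RpS14a (SE 0.11) and -0.15 for RpS14b (SE 0.097), neither called. Under OGT RNAi it was 0.12 for RpS14a (SE 0.073) and 0.18 for RpS14b (SE 0.085), neither called.

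RpS15Ab (2R, 10821676 to 10822399, plus strand) held the smallest share of a measured pair, beside RpS15Aa (X, 13335637 to 13337705, minus strand). Its share was 3.34 and 2.24% on the sugar diet, 2.29 and 2.43% on the control diet, 6.37 to 7.21% under OGT RNAi and 6.05 to 7.10% in the Gal4 control. As with RpS14b the 2 experiments did not overlap, but here the share was lower in the diet experiment. Within each experiment the groups overlapped.

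**Figure D5:**
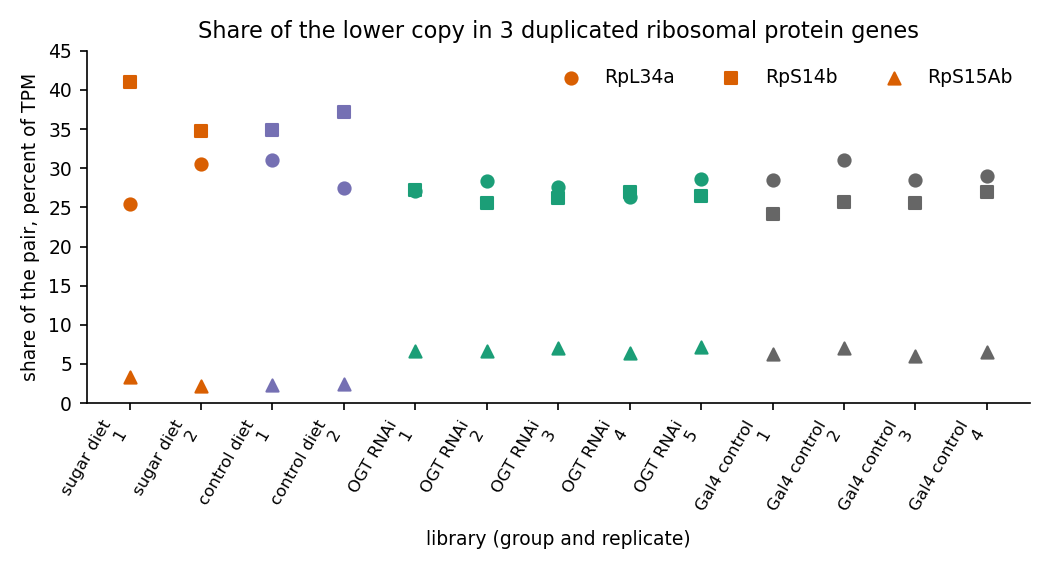
Share of the pair's TPM held by the lower copy in the 3 paralogue pairs with both copies measured, in each of 13 libraries (colours are groups, shapes are genes). RpS14b lies at 34.7 to 41.0% in the diet experiment and 24.2 to 27.2% in the OGT RNAi experiment, RpS15Ab at 2.24 to 3.34% and 6.05 to 7.21%, and RpL34a between 25.4 and 31.0% in both.

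Other genes of translation and ribosome production were read from lists beside the members. On the sugar diet, 2 of 32 tested initiation genes were called higher, with 11 above and 21 below 0 (median log2 change -0.03). None of 10 elongation and release genes was called (2 above and 8 below 0, median -0.09). None of 9 genes of RNA polymerases I and III was called (4 above and 5 below 0, median -0.03). Over all tested genes 3.12% were called higher and 3.35% lower. The cap-binding factor eIF4E1 rose from 150 ± 9.39 to 190 ± 1.14 CPM (SD, n = 2 each; log2 change 0.34, adjusted p 0.0186, edgeR), and pAbp, the poly(A)-binding protein, rose from 2593 ± 49.3 to 3373 ± 125 CPM (0.38, adjusted p 0.0133, edgeR). Of 42 tested genes of ribosome assembly in the nucleolus, Nnp-1 rose (0.85, adjusted p 0.0193, edgeR) and CG5033 fell (-0.87, adjusted p 0.0332, edgeR). The assembly list had 15 genes above and 27 below 0 (median -0.08). All 4 calls ended without control diet replicate 2 (adjusted p 0.130 to 0.397, edgeR), and all but that of Nnp-1 without control diet replicate 1 (0.147 to 0.295), while that of CG5033 also ended without sugar diet replicate 1 (0.0854). With DESeq2 only pAbp of these 4 was called, and in the fit over all 13 libraries its call ended (0.40, adjusted p 0.665, edgeR). On log2(TPM + 1) the calls of Nnp-1, pAbp and eIF4E1 ended, at log2 changes of 0.51, 0.08 and 0.10, and with library totals alone those of pAbp and eIF4E1, at 0.18 and 0.13. None of 25 growth control genes and none of 5 tested ribosomal proteins outside the name rule, among them sta and Rack1, was called between the diets. The median log2 changes of these lists were -0.03 and 0.02. Under OGT RNAi no gene of these lists was called, and their median log2 changes were 0.03 for initiation, 0.00 for elongation, 0.01 for assembly, 0.02 for the polymerases, -0.03 for growth control and 0.11 for the ribosomal proteins outside the name rule.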

How the data were processed

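RNA of dissected proboscises was measured in 13 libraries of 4 groups. The submitters' processing notes name Trimmomatic 0.22, a read trimmer, kallisto 0.43, which estimates transcript levels, and sleuth. The sleuth model, the genome build and the annotation release were not given in the sources used here. The deposited tables hold the authors' estimated counts per transcript, which are expected counts without normalization, and the authors' TPM, scaled to transcript length within a library. The authors' deposited result tables give effects on a natural log scale with p-values and q-values.

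Estimated counts were summed per gene and rounded, and the 0.042 to 0.0569% of counts without a gene was left out. Low genes were removed by filterByExpr at a minimum count of 10 and a minimum total of 15. The rest were scaled by TMM and tested with the two-sided robust quasi-likelihood test of edgeR 4.0.16 in R 4.3.3, with Benjamini-Hochberg adjustment over all tested genes of each of 2 comparisons and a threshold of 0.05. CPM are TMM-normalised. The bound given for 0 counts takes a read count to have counting error only. As no molecular identifiers were used, that bound is a minimum. Deviations used log2(CPM + 0.5). The fit was tested on simulated data. DESeq2 1.42.0, limma 3.58.1 on log2(TPM + 1) and log2(TPM + 0.1), other scalings, no filter, a length offset, a replicate block and leave-one-out fits were alternatives. Positions are those of the BDGP6 annotation (Ensembl release 115). They were identical to the authors' positions in 76 members and differed in 1 (RpL23A). Figures were drawn with matplotlib 3.10.9.

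The members and lists were chosen with earlier results of these data known. The rule for naming took called members, the 3 largest changes in each direction of a comparison, the 5 highest and lowest levels, paralogue pairs, stalk genes, up to 3 called genes of each other list, and sxc. Members named for a change of place between the experiments, for lying at or near 0 change, or for a transcript were chosen after their values were seen, and so were the taste receptors. The values of 1 member are not reported here.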

Additional observations from a re-analysis of the deposited data

Results flagged for a closer look

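Of 70 quantities examined in groups of 4 or 5 libraries, 2 had a library set far apart from the others of its group. Chance gives about 1 in 20 such groups. For RpS14b, Gal4 control replicate 1 was at 140.9 CPM, and the other 3 libraries of the group lay at 167.7 to 169.4 CPM. In the same library 80 of 81 tested ribosomal protein genes lay below the mean of the group. For sxc, the target of the RNAi, OGT RNAi replicate 2 was at 170 CPM, and the other 4 lay at 133 to 138 CPM. In that library all 81 tested ribosomal protein genes lay below the mean of the group.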

How the results depend on the processing

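Of the called members, RpL10Ab kept its direction under every alternative run (log2 change -0.69 to -0.38), as did RpS26 (-0.61 to -0.28) and RpS3 (0.03 to 0.40), but their calls did not hold under all. For the diets, library totals alone gave 12 members called, 949 genes, 5 members above 0 and a median of -0.25. Scaling on the members alone gave 1 member called. DESeq2 called 306 genes. limma on log2(TPM + 1) and on log2(TPM + 0.1) called 0 members, with 2 above 0 and a median of -0.33 each, beside medians of -0.25 and -0.28 over all genes. On these scales RpS15Aa was reversed, at -0.0303 and -0.0304. All 13 libraries in 1 fit called 0 members and 300 genes. Leaving out 1 library at a time, where the lone sample of a group is assumed to vary like the other group, gave 0 to 16 members called, 195 to 938 genes, 15 to 53 members above 0, a median of -0.1572 to 0.0443 and a log2 ratio of summed shares of counts of -0.38 to -0.10. For OGT RNAi, scaling on the members alone gave 75 genes. It also gave 40 members above 0 and a median of -0.0018, which centring on the members builds in. DESeq2 called 254 genes, and leave-one-out fits called 42 (without Gal4 control replicate 4) to 264 genes (without OGT RNAi replicate 4). The causes were not tested. Replicate numbers did not pair the libraries: same-numbered libraries had correlations of deviations of 0.0048 in the diet experiment and of 0.16, -0.25, -0.02 and -0.05 in the other. A replicate block gave 3 members, 728 genes and a median of -0.06 for the diets, and 0 members, 88 genes, 76 members above 0 and a median of 0.08 for OGT RNAi. The numbered pairs without a block, an alternative chosen after seeing the data, gave 97 genes and a median of 0.09. With 2 libraries a group, the diet comparison rests on few degrees of freedom, and the shallowest library, sugar diet replicate 1, was also the one with the lowest ribosomal protein share.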
